A study of Mus musculus with 14 samples.

Results

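The subject of this report is a set of 4183 distal open-chromatin regions of mouse embryonic stem (ES) cells. Their calls were first missing from both libraries at 16 or 24 h after induction of the transcription factor GATA6. The regions were chosen by their peak calls in ATAC-seq, an assay in which a transposase inserts adapters into accessible DNA. Peaks of all 14 libraries on the autosomes were merged wherever they shared at least 1 bp, which gave 121891 regions, and 102167 of these were distal, with a midpoint more than 1 kb from every protein-coding transcription start site (TSS). A late-lost region was called in both libraries of 0 h and in neither library of 48 h, and its first time point without a call was 16 h (1350 regions) or 24 h (2833 regions). The late-lost regions made up 12.4% of the 33664 distal regions called in both 0 h libraries, and 57.2% of those 33664 had no call at 48 h.

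All libraries came from KH2 ES cells of the C57BL/6 strain, with 1 copy of a transgene whose bidirectional TET-responsive element drives GATA6-FLAG and DsRed2 under doxycycline, so the controls carried the transgene too. The 0 h cells (2 libraries) were kept in 2i medium with LIF and received no doxycycline. Cells of 2, 4 and 8 h (2 libraries each) were harvested in serum medium with LIF and 1 µg/mL doxycycline, and cells of 16, 24 and 48 h (2 libraries each) were harvested after doxycycline had been removed at 12 h. The change from 2i to serum coincided with induction in every induced library, so induction and medium cannot be told apart in any comparison with 0 h. Likewise every library of 16 to 48 h came after doxycycline removal, so removal and later time cannot be told apart against 2 to 8 h. The deposited lists held 55588 to 65073 peaks per library, the replicate 2 list being the longer at 7 of 7 time points. The peak lists hold no read counts, the reads per library that the study lists elsewhere were not used here, and a missing call does not show that a region was closed.

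Distal open regions in ES cells are for a large part enhancers, to which pluripotency factors such as OCT4, SOX2, ESRRB and KLF proteins bind, with OCT4 and SOX2 often side by side on a composite SOX-POU motif. GATA6 is the factor that drives inner-cell-mass cells into the primitive endoderm (PrE), the alternative to the pluripotent epiblast (Epi), and it binds GATA motifs. AP-1 is a family of FOS and JUN dimers that bind TGANTCA and that respond quickly to growth factors and serum. The windows below show the sequence types on which the results turn. Each is 200 bp at the midpoint of a late-lost region, given 5′ to 3′ on the plus strand of GRCm38, and its capitals mark the AP-1 match in the Pim3 and Cdh13 windows, the match to AGATAA, the motif of GATA factors, in the Cmtm4 window and the SOX-POU composite in the Pard3 and Gsx2 windows. The Sox2 and Esrrb windows, shown because these genes encode core pluripotency factors, held none of the 12 motifs searched and have no capitals. The Pim3, Cdh13 and Gsx2 windows also held other motifs of the 12, which are not marked. In the Gsx2 window these were a POU octamer, a GATA and an AP-1 match. The AP-1 and GATA examples were chosen after the results were seen.

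Pim3 window (chr15:88881631-88881830): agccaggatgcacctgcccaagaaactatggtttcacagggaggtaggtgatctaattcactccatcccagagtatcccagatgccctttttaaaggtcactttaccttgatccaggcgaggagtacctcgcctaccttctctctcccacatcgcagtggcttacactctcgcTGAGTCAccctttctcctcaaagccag
Cdh13 window (chr8:118394241-118394440): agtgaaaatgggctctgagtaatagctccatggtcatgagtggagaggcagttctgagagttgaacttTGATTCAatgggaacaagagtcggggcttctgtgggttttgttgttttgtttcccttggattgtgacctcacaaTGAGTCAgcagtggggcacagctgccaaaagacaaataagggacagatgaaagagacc
Cmtm4 window (chr8:104410914-104411113): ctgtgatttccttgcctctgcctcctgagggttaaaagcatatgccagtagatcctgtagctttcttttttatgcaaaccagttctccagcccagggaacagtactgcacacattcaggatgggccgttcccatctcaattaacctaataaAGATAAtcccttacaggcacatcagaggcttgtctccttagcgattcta
Pard3 window (chr8:127343263-127343462): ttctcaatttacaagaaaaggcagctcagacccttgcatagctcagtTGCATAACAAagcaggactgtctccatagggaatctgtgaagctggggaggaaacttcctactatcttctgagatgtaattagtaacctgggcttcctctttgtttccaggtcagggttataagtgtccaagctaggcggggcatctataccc
Gsx2 window (chr5:75085219-75085418): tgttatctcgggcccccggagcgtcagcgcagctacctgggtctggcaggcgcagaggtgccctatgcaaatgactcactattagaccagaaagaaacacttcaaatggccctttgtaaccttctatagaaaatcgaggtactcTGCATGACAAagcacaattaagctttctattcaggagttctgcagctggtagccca
Sox2 window (chr3:34668531-34668730): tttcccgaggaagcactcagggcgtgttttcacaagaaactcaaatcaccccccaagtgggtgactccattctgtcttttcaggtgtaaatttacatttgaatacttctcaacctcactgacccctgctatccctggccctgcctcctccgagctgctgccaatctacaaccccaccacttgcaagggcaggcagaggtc
Esrrb window (chr12:86501779-86501978): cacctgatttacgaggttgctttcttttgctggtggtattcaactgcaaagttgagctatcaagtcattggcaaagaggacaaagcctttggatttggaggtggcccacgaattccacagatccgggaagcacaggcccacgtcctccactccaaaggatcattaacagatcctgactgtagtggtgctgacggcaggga

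The first question was when these regions began to change. By rule every one was called at 0 h. The 2 h libraries called 92.7% and 95.7% of them, the 4 h libraries 92.9% and 94.8%, the 8 h libraries 82.1% and 82.8%, and the 16 h libraries 52.7% and 59.9%. These shares partly follow from the rule and are a description. The libraries are bulk samples, so fewer cells with an open region and less opening per cell cannot be told apart. The peak score gave a second measure. Because its scale is not stated, it was read as a percentile, the percentage of a library's own peaks with a score at or below it. The median percentile of the late-lost regions called in each library was 62.0 and 63.3 at 0 h, 62.5 and 63.8 at 2 h, 54.4 and 56.5 at 4 h, 33.8 and 32.9 at 8 h, then 30.0 and 32.7 at 16 h. The rank of the surviving peaks thus dropped most between 4 and 8 h, when more than 80% of the regions were still called.

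The same measure was also read in a fixed set, the 2376 late-lost regions called in all 8 libraries of 0 to 8 h. Their median percentile was 67.9 and 68.8 at 0 h, 71.8 and 73.4 at 2 h, 65.8 and 67.6 at 4 h, then 42.8 and 42.0 at 8 h. Between 0 and 8 h, 1770 of them (74.5%) ranked lower in replicate 1 and 1843 (77.6%) in replicate 2, with median changes of -21.3 and -23.1 percentile points. Their peaks also became narrower, with a median width of 523 and 536 bp at 0 h and 419 and 436 bp at 8 h. The median width of all peaks in these libraries moved in the same direction, from 464 and 457 bp to 387 and 402 bp, and its part in the narrowing was not tested.

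**Figure D1:**
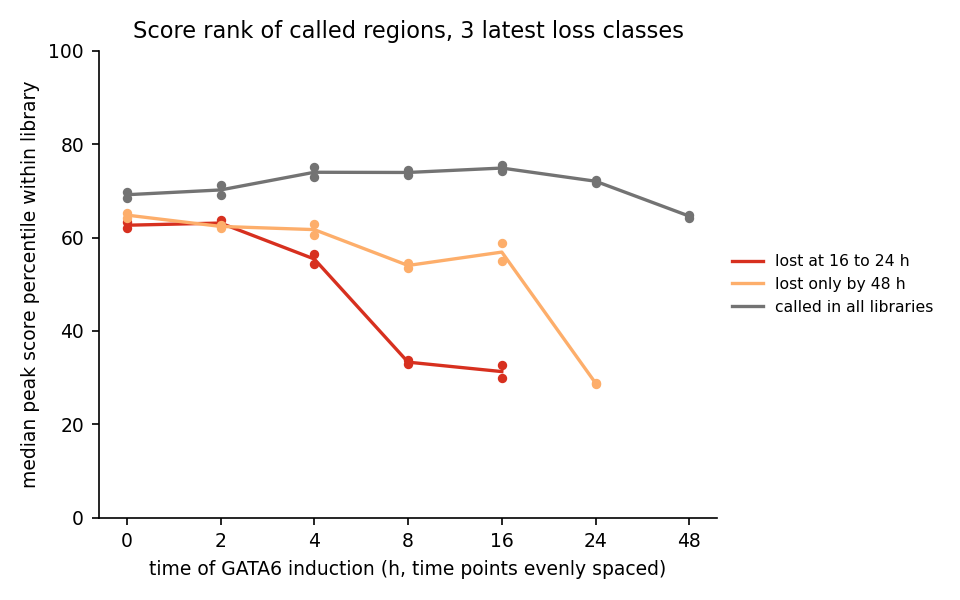
Median score percentile (y axis, percent of a library's peaks) of distal regions called in a library against time of GATA6 induction (x axis, h), for regions lost at 16 to 24 h, lost only by 48 h and called in all libraries. Points are libraries and lines join the means of 2; libraries calling under 10% of a class are left out, and the late-lost regions fall to 33.8 and 32.9 at 8 h against 54.5 and 53.6 for regions lost only by 48 h and 74.6 and 73.3 for regions called in all libraries.

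To obtain a readout that the rule had not used, late-lost regions were defined from the 7 libraries of 1 replicate number and read in the 7 libraries of the other. Replicate 1 gave 4209 such regions and replicate 2 gave 4254. In the libraries not used to define them, the mean share called was 91.5% ± 1.57 (SD, n = 2) at 0 h, 94.1% ± 2.52 at 2 h, 94.4% ± 2.19 at 4 h, 81.9% ± 1.07 at 8 h, 65.8% ± 6.04 at 16 h, 17.7% ± 2.89 at 24 h, then 4.16% ± 0.900 at 48 h. Every library of 0 to 8 h was above every library of 16 to 48 h. The means were 90.5% ± 5.61 (SD, n = 8) and 29.2% ± 29.1 (SD, n = 6), a difference of 61.3 percentage points (exact two-sided permutation test over the 14 libraries, p = 0.000333, adjusted p = 0.00699 over the 21 tests of this report). The test asked for the same contrast that had chosen the regions, at the same time points of the other series. The regions themselves had been merged from all 14 libraries. The result thus shows that calls were reproduced between the replicate series, and no more than that. The SD over 16 to 48 h includes the fall between those time points. All libraries of 16 to 48 h also followed doxycycline removal, which cannot be told apart from time in this comparison. The labels do not say whether libraries of a time point came from separate cultures, although the study states for its experiments in general that repeats were independent. The p-values measure the spread between these libraries.

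The timing itself was less sharp in the held-out libraries than in the rule. Regions that 1 replicate series placed at 16 h were still called at a mean of 35.2% ± 8.70 (SD, n = 2) in the other series at 16 h, and those placed at 24 h were called at 83.7% ± 6.59 at 16 h, then 21.7% ± 4.93 at 24 h. The neighbouring classes, read the same way, lost most of their calls at other times. Regions lost at 4 to 8 h had reached 21.3% ± 0.205 (SD, n = 2) by 8 h, and regions lost only by 48 h stood at 80.5% ± 4.57 at 24 h, then 21.7% ± 4.12 at 48 h.

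**Figure D2:**
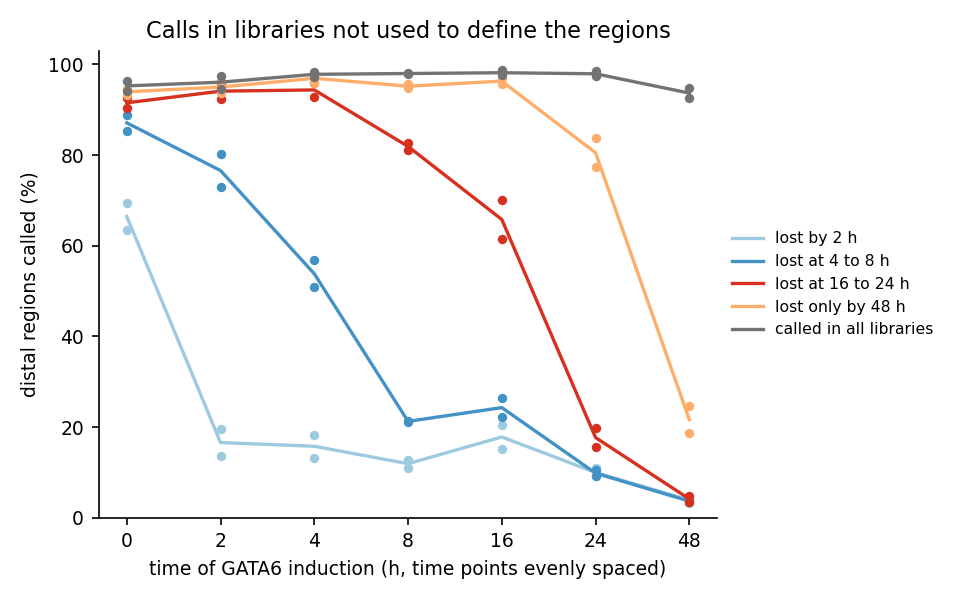
Share of distal regions called (y axis, %) against time of GATA6 induction (x axis, h), for loss classes defined in the libraries of 1 replicate number and read in those of the other. Points are libraries and lines join the means of 2; regions lost at 16 to 24 h go from 65.8% at 16 h to 17.7% at 24 h, between the classes lost earlier and later.

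Within the first 8 h, the held-out score rank fell with time and the held-out share of calls did not pass the test. The median held-out percentile was 64.0 and 65.9 at 0 h, 65.0 and 68.0 at 2 h, 58.8 and 62.2 at 4 h, then 42.1 and 42.5 at 8 h. Over these 8 libraries Pearson's r with time was -0.926 (exact two-sided permutation p = 0.00317, adjusted p = 0.0286) and Spearman's rho was -0.83 (exact p = 0.0198, adjusted p = 0.0463). Without the 2 libraries of 8 h, which are farthest from the median time, r was -0.625 (exact permutation p = 0.178), so the relation rested on the 8 h libraries. The exact test's adjusted p for r was 0.0542 without 0 h replicate 2, 0.05 without 4 h replicate 1, 0.0571 without 8 h replicate 2, 0.0944 without 24 h replicate 2, and 0.0729 with the replicate block, in which libraries were permuted within their replicate number. For the share of regions called, r was -0.736 (exact permutation p = 0.0409, adjusted p = 0.078) and rho was -0.293 (exact p = 0.513, adjusted p = 0.599), and r was 0.586 without the 8 h libraries (exact permutation p = 0.244).

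The 1350 regions lost at 16 h and the 2833 lost at 24 h differed before their loss. At 0 h the regions lost at 16 h had median percentiles of 54.8 and 56.1, and those lost at 24 h had 65.7 and 66.2. At 8 h these values were 21.9 and 20.5 against 39.5 and 38.8. Both 8 h libraries called 636 of the regions lost at 16 h (47.1%) and 2078 of those lost at 24 h (73.4%). These values come from the libraries the rule used and are given without a test.

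Loss was mostly, but not always, lasting. Of the regions lost at 16 h, 98 (7.26%) were called again in at least 1 library of 24 h, 25 of them (1.85%) in both, before they had no call at 48 h. For comparison, 2.71% of the 10689 distal regions called in both 0 h libraries and in neither library of 16 or 48 h had a call at 24 h. The calls regained at 24 h were weak, with median percentiles of 10.4 and 10.0. Among regions lost at 24 h and called at both 8 and 16 h, the percentile was higher at 16 h than at 8 h in 601 of 1946 (30.9%) in replicate 1 and in 865 of 2199 (39.3%) in replicate 2. A further 259 and 307 regions lost at 24 h were called at 16 h after no call at 8 h in the same replicate series.

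In strict terms, 1868 late-lost regions (44.7%) were called in both libraries at every time point before the loss, and 1827 of these had no call afterwards, 479 lost at 16 h and 1348 lost at 24 h. Just outside the rule, 238 regions with the same calls lay within 1 kb of a TSS, the nearest to the limit at 997 bp, while the late-lost region closest to a TSS lay at 1016 bp. Another 217 distal regions failed the rule by a single call at 48 h, and 936 by a single missing call at 0 h.

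The median distance of the late-lost regions to the nearest protein-coding TSS was 29.3 kb, against 33.6 kb in regions lost at 4 to 8 h, 22.3 kb in regions lost only by 48 h and 17.4 kb in regions called in all libraries. By their midpoints, 2055 (49.1%) were in introns, 1970 (47.1%) intergenic and 158 (3.78%) in exons of protein-coding genes (GENCODE M21). The median GC content of the 200 bp windows was 48.5%, against 53.0% in regions called in all libraries and 49.5% in all distal regions, and the mean number of CpG was 2.58 against 5.09 and 3.08. The merged regions had a median width of 650 bp and a range of 126 to 1902 bp. The median gap between neighbouring late-lost regions was 267 kb, against 72.8 kb between regions called in all libraries. Every autosome held some, from 10.7% of the distal regions called at 0 h on chromosome 11 to 14.3% on chromosome 12.

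The next question was which sequence motifs these regions held. 12 motifs were searched on both strands of the 200 bp windows, each beside a control made of the same letters in another order. AP-1 (TGANTCA) was found in 14.3% of the late-lost regions, against 3.02% of regions lost by 2 h, 8.54% of those lost at 4 to 8 h, 10.5% of those lost only by 48 h and 7.72% of those called in all libraries. The control TAGNCTA was at 2.96% in the late-lost regions. When whole regions, with a median width of 650 bp, were searched in place of the windows, AP-1 was at 33.3%. That share is given without a control or another class and cannot be set against the shares of 200 bp windows. Over all distal regions, which include regions not called at 0 h, AP-1 was at 13.1%. AP-1 was more frequent in regions lost at 16 h (16.7%) than at 24 h (13.2%). With late-lost regions defined in each replicate series alone, the AP-1 share was 16.2% ± 0.155 (SD, n = 2), against 10.3% ± 0.00316 for 4 to 8 h and 11.2% ± 0.213 for 48 h. The 2 sets of a class share regions and were read from the same genome sequence, so their SD does not measure a spread between samples. This also holds for the other shares per replicate series below. The differences between classes were not tested, and 2 values against 2 cannot reach a two-sided exact p below 0.333. Split by GC content, the AP-1 share of the late-lost regions was 15.7%, 14.2% and 12.7% in the GC-poor, middle and GC-rich groups of regions, with controls at 3.44%, 3.1% and 2.2%.

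Another distribution was seen for the motif bound by GATA factors, with the letters AGATAA. It was found in 11.5% of the late-lost regions, against 4.42% of regions lost by 2 h, 5.8% of those lost at 4 to 8 h, 10.2% of those lost only by 48 h, 11.2% of those called in all libraries and 19.3% of all distal regions. Its control AATAGA, at 9.68% in the late-lost regions, was nearly as frequent there, and was more frequent than the motif in regions lost by 2 h (9.78%) and at 4 to 8 h (11.6%). The share of late-lost regions with GATA was 11.9% ± 0.0609 (SD, n = 2) when they were defined per replicate series, against 6.68% ± 0.519 for 4 to 8 h. At like GC content GATA was less frequent in the late-lost regions than in regions called in all libraries. Against regions lost only by 48 h the shares were close in the middle and GC-rich groups. In the GC-poor group it was in 18% of the late-lost regions (control 14%), 20.1% of regions lost only by 48 h and 26.1% of those called in all libraries. The shares were 9.3% (control 9.45%), 9.46% and 13.8% in the middle group, then 5.3% (control 4.32%), 5.66% and 6.57% in the GC-rich group.

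Motifs of pluripotency factors were each found in a smaller share of the windows, KLF excepted. The SOX-POU composite was in 67 late-lost regions (1.6%), against 0.897% of regions lost by 2 h, 1.23% at 4 to 8 h, 0.956% only by 48 h and 0.261% of regions called in all libraries, with its control at 0.0717%. It stood in 1.11% of regions lost at 16 h and 1.84% of those lost at 24 h. The POU octamer ATTTGCAT was in 4.85% of the late-lost regions and in 2.1% of regions called in all libraries. The 2 motifs share letters, and 8 late-lost regions held both. ESRRB (AAGGTCA) was in 7.51%, below the 9.91% of regions lost at 4 to 8 h, and KLF (GGGNGTGG) in 14.6%, below the 20.3% of regions lost only by 48 h. TCF/LEF (CTTTGAT) was in 5.31%, against 8.71% of regions lost by 2 h. The CTCF core motif was rare, at 0.622% against 5.04% in regions called in all libraries. SOX (AACAATG), STAT (TTCCNGGAA), TFCP2L1 and TEAD (GGAATG) were in 4.64%, 0.837%, 7.15% and 15.2% of the late-lost regions. Over all distal regions the shares were 0.463% for SOX-POU, 2.6% for the octamer, 6.15% for ESRRB, 14.2% for KLF, 3.95% for TCF/LEF, 2.51% for CTCF, 5.34% for SOX, 1.15% for STAT, 6.79% for TFCP2L1 and 15.9% for TEAD. None of the 12 motifs was found in 1630 late-lost windows (39%). A match is a run of letters and does not show binding.

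**Figure D3:**
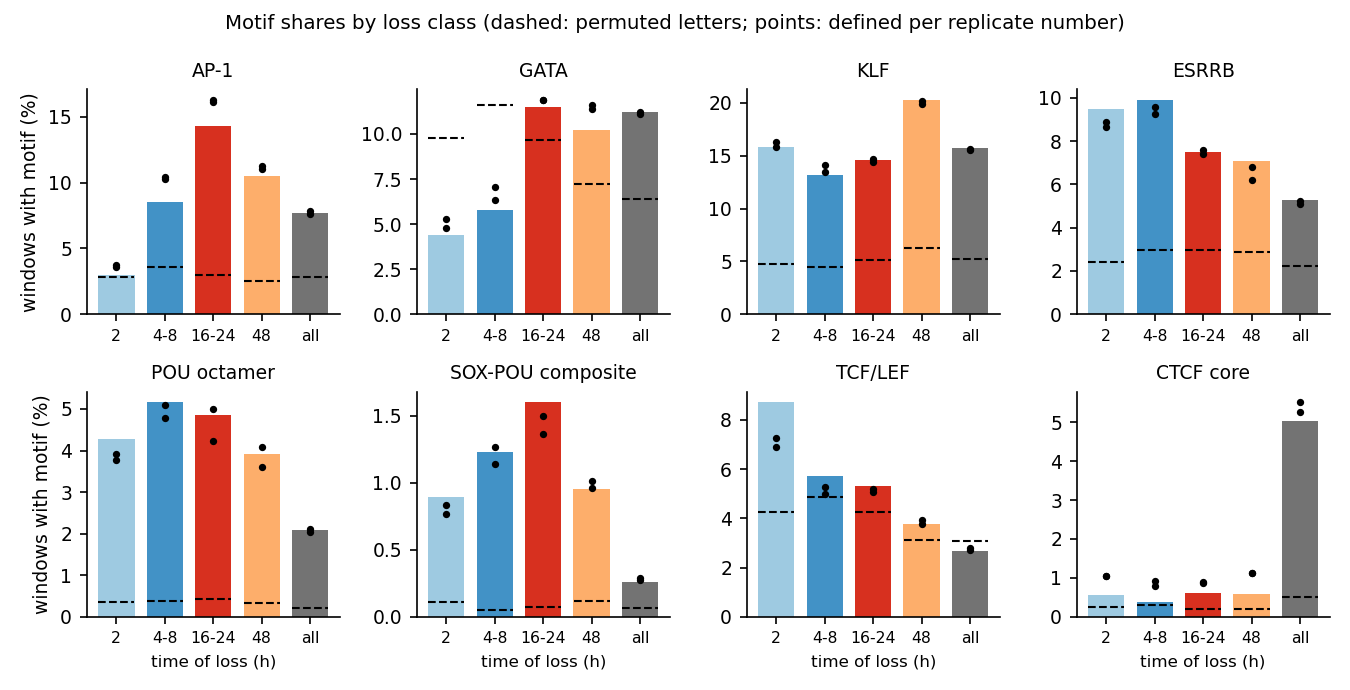
Share of 200 bp windows with a motif (y axis, %) for distal regions by time of loss (x axis, h, where "all" means called in all 14 libraries) for 8 of the 12 motifs. Bars use all libraries, points use the libraries of 1 replicate number, dashed lines are the permuted control; AP-1 is highest in the late-lost regions (14.3%) and GATA rises from 5.8% at 4 to 8 h to 11.5%.

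The late-lost regions were then split by motif and followed before their loss. This comparison was added after its values had been seen. For the tests, the regions were those defined in 1 replicate series, read in the libraries of the other series and limited to those called in all 4 of its libraries of 0 to 8 h. With an AP-1 match there were 500 of these regions read in replicate 1 and 511 in replicate 2, and without one 2387 and 2549. The median percentile with AP-1 minus that without was -12.0 and -11.6 points at 0 h, then 14.2 and 14 points at 2 h. It was still 8.08 and 7.99 points at 4 h, then 5.6 and 5.34 points at 8 h. The difference changed by 25.9 points between 0 and 2 h, and it varied with time over the 8 libraries (exact permutation F test, p = 0.00952, the smallest this test allows, adjusted p = 0.0286). The call was lost with the replicate block (exact test, adjusted p = 0.0875). It was also lost without 4 h replicate 1, either 8 h library or either 24 h library (exact test, adjusted p of 0.05 to 0.0944), while the change stayed between 25.8 and 30.6 points without any single library.

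The regions with a GATA match, 344 read in replicate 1 and 376 in replicate 2, changed more slowly. Their median percentile minus that of the other 2543 and 2684 was -7.28 and -8.93 points at 0 h, -0.547 and 0.457 points at 2 h, 6.28 and 7.24 points at 4 h, then 9.05 and 10.4 points at 8 h. The difference changed by 17.8 points from 0 to 8 h, and it varied with time over the 8 libraries (exact permutation F test, p = 0.00952, adjusted p = 0.0286). This call was lost with the replicate block (exact test, adjusted p = 0.0875) and without the same single libraries as for AP-1 (exact test, adjusted p of 0.05 to 0.1). Searching whole regions lowered the change to 10.8 points (exact test, adjusted p = 0.1). SOX and TFCP2L1 (adjusted p = 0.0286 for both) and ESRRB (adjusted p = 0.0463) also passed this exact permutation F test of variation over 0 to 8 h. Their changes between 0 and 2 h were -3.1, -7.19 and 1.78 points. The ESRRB difference was lowest at 8 h, at -4.37 and -2.81 points against -0.119 and -1.16 at 0 h. The SOX difference went from 5.57 and 9.23 points at 0 h to -1.42 and 0.546 at 8 h. With the replicate block SOX, TFCP2L1 and ESRRB did not pass (exact test, adjusted p = 0.0875, 0.0875 and 0.135). These motifs kept their calls in 6, 6 and 2 of 23 alternatives. The 7 other motifs did not pass, with adjusted p from 0.129 to 0.952 in the exact test, and the SOX-POU composite was last.

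The 2376 late-lost regions called in all 8 libraries of 0 to 8 h show the courses themselves, given without a test because the rule used these libraries. The 425 with AP-1 ranked higher at 2 h than at 0 h in both replicate series, with median changes of 18.4 and 19.3 points and 77.4% and 80.9% of them higher than at 0 h. Without AP-1 the median changes were -1.86 and -1.56 points, and by 8 h regions with AP-1 were also below their 0 h rank, by medians of -6.89 and -9.77 points against -24.2 and -26.2. The 304 regions with GATA had a median change from 0 h of 9.02 and 9.75 points at 4 h, then -4.7 and -6.04 points at 8 h, against -23.4 and -25.2 points at 8 h in regions without GATA.

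Regions with both motifs had the lowest rank at 0 h and the highest at 8 h of the 4 sets made by both motifs. The 45 regions with both motifs had median percentiles of 44.2 and 48.7 at 0 h, 82.3 and 83.7 at 2 h, 78.5 and 80.0 at 4 h, then 54.0 and 54.4 at 8 h. The 380 with AP-1 and no GATA went from 59.1 and 59.9 to 82.8 and 84.5 at 2 h and back to 45.9 and 45.6 at 8 h. The 259 with GATA and no AP-1 went from 61.5 and 60.5 to 69.5 and 72.2 at 4 h, then 51.4 and 52.0 at 8 h. The 1692 with neither started highest, at 71.3 and 72.7, and ended lowest, at 41.2 and 39.8. At 16 h, 57.1% and 65.5% of the regions with AP-1 alone were called, against 71.4% and 77.2% of those with GATA alone and 64.7% and 71.3% of those with neither.

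**Figure D4:**
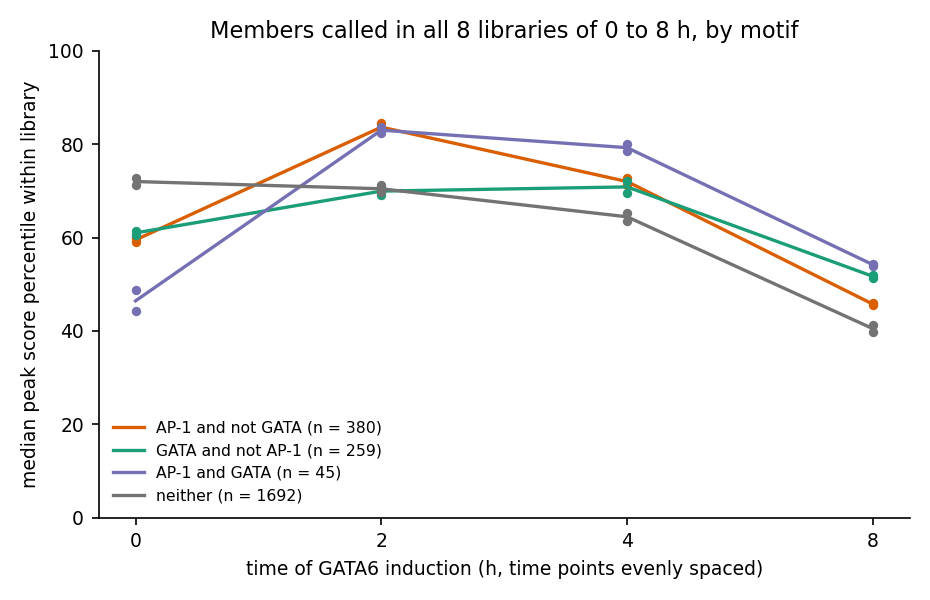
Median score percentile (y axis, percent of a library's peaks) against time of GATA6 induction (x axis, h) for the 2376 late-lost regions called in all 8 libraries of 0 to 8 h, split by AP-1 and GATA matches. Points are libraries and lines join the means of 2; regions with AP-1 peak at 2 h (82.8 and 84.5 for AP-1 alone) and regions with neither motif fall from 71.3 and 72.7 to 41.2 and 39.8.

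The same reading in held-out libraries was made for regions that stayed open longer. In regions lost only by 48 h, the AP-1 difference went from -6.38 and -4.76 points at 0 h to 16.8 and 15.5 points at 2 h, and in regions called in all libraries from -1.41 and -3.02 to 13.4 and 12.0. The change between 0 and 2 h was 4.12 points larger in the late-lost regions than in regions lost only by 48 h. It was 10.9 points larger than in regions called in all libraries. The F test asked whether the gap between classes varied over the times from 0 to 8 h, and not about this change alone. It passed for neither class (exact permutation F test over 8 libraries, adjusted p = 0.1 and 0.06). The GATA difference went from -4.71 and -5.7 points at 0 h to 10.6 and 10.9 points at 8 h in regions lost only by 48 h, and from -4.67 and -3.66 to 11.2 and 11.9 in regions called in all libraries. Its change was 1.83 points larger in the late-lost regions than in regions lost only by 48 h (exact permutation F test, adjusted p = 0.0286) and 2.12 points larger than in regions called in all libraries (adjusted p = 0.129). The call against regions lost only by 48 h was kept in 8 of 21 alternatives. The excess of 1.83 points turned to -2.18 points without 24 h replicate 1 and to -1.43 points without 24 h replicate 2.

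Genes were assigned by the nearest protein-coding TSS within 50 kb, which gave a gene for 2695 late-lost regions. The study's lists of Epi and PrE genes come from single cells of blastocysts and not from these libraries, and 218 of 221 Epi and 570 of 579 PrE symbols were found in the annotation. Epi genes took 105 of the assigned late-lost regions (3.9%), against 2.95% of the distal regions called in both 0 h libraries. PrE genes took 74 (2.75%), against 3.9%. Defined per replicate series, the shares were 3.84% ± 0.191 (SD, n = 2) and 3.17% ± 0.0615. Regions lost at 24 h had an Epi share of 4.41% and those lost at 16 h of 2.8%. Across the loss classes the Epi share was 2.26% by 2 h, 3.1% at 4 to 8 h and 4.22% only by 48 h, so the late-lost regions lay between their neighbours.

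Most of the 2310 genes with a late-lost region had a single one (1992 genes), and 51 had at least 3. 5 regions each were assigned to Cd47, a cell-surface signal read by phagocytes (5 of 8 distal regions called at 0 h), Macf1, a crosslinker of actin and microtubules (5 of 21), Nav1 (5 of 20), the splicing factor gene Rbfox2 (5 of 22) and Syne2, which encodes a nuclear-envelope protein (5 of 12). Bcl2l14, Fam19a4, Ninj2, the phosphodiesterase gene Pde4d, the sphingomyelin synthase gene Sgms1 and Tspan5 had 4 each, and Afap1 had 3.

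In the list of naive pluripotency genes, 4 of 16 had a late-lost region, and these regions were 8 of the 81 distal regions called at 0 h near the list (9.88%). Over all genes, 2695 of the 23617 assigned distal regions called in both 0 h libraries were late-lost. The shares of the lists below have the same background. Esrrb, an orphan nuclear receptor of the naive network, had 3 of its 18, Klf2 2 of 6, Tbx3 2 of 8 and Prdm14 1 of 7, and Nanog and Klf4 had none. The strongest at Esrrb (chr12:86501518-86502238, intronic, 31.8 kb from the nearest Esrrb TSS) had percentiles of 98.5 and 97.6 at 0 h, 87.1 and 90.4 at 2 h, 64.9 and 61.0 at 4 h, 5.4 in the 8 h library that called it, and 15.0 and 22.9 at 16 h. It had thus lost most of its rank by 8 h, well before its last call. At Klf2, a naive pluripotency factor, a region 2.61 kb from the TSS (chr8:72316060-72316789, intergenic) went from 97.4 and 96.5 at 0 h to 23.9 in the calling 8 h library and 17.9 in the calling 16 h library.

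**Figure D5:**
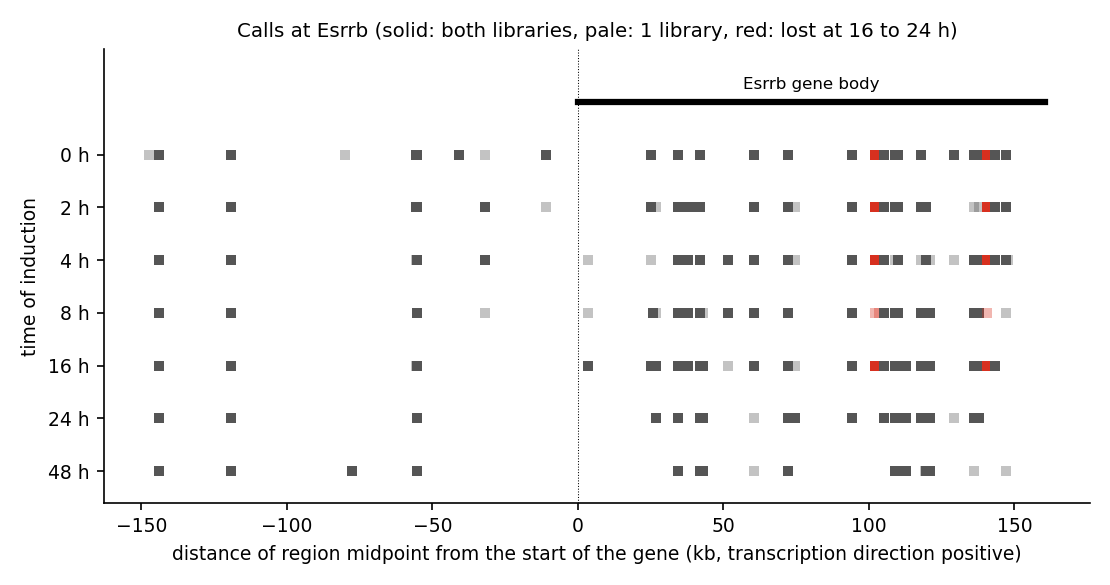
Peak calls around Esrrb, with the distance of each region's midpoint from the start of the gene (x axis, kb) against time of GATA6 induction (y axis). Solid squares are called in both libraries and pale squares in 1; the 3 late-lost regions (red, at 102.1, 103.5 and 140.8 kb, the first pair overlapping in the drawing) have no call at 24 or 48 h, while 4 regions inside the gene body are called in all libraries.

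Of 11 general pluripotency genes, 5 had a late-lost region, in all 8 of 44 distal regions called at 0 h (18.2%). Both distal regions assigned to Sox2 and called at 0 h were late-lost. The stronger (chr3:34668427-34668834, intergenic, 18.2 kb from the TSS) took a course unlike that at Esrrb, with percentiles of 91.8 and 88.9 at 0 h, 74.7 and 69.8 at 8 h, then 67.9 and 77.2 at 16 h, and then no call at 24 h. Fgf4, which encodes the FGF ligand made by epiblast cells, had 2 of 6, Jarid2, a partner of Polycomb repressive complex 2, 2 of 9, Pou5f1, which encodes OCT4, 1 of 4 and Zfp281 1 of 6. The strongest Jarid2 region (chr13:44751565-44752195, intronic) went from 90.1 and 91.0 at 0 h to 43.2 in the calling 8 h library and stood at 55.2 and 66.9 at 16 h. Among 9 formative epiblast genes, Foxd3 had 1 of 7 and Lef1, a mediator of WNT signals, 2 of 5. A Lef1 region (chr3:131102084-131102774, intergenic, 8.04 kb from the TSS) was at 97.7 and 95.8 at 0 h, 58.0 and 49.7 at 8 h, then 83.6 and 86.1 at 16 h, so it ranked higher just before its loss than at 8 h.

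The LIF pathway list, 8 genes that carry or answer the LIF signal, had 3 genes and 4 of 37 regions (10.8%): Socs3, its feedback inhibitor, and the kinase genes Pim1 and Pim3. A Pim1 region in an exon of the gene (chr17:29494213-29495012, 1.21 kb from a TSS), with an AP-1 and a SOX-POU match, went from 25.8 and 54.3 at 0 h to 71.4 and 78.9 at 2 h, then 67.2 and 76.3 at 4 h, and had no call from 16 h. The Pim3 region shown above with its AP-1 match (chr15:88881320-88882141, intergenic, 19.5 kb from the TSS) went from 13.8 and 36.8 to 61.6 and 63.9 at 2 h and was likewise lost at 16 h. In both, each 2 h library stood above each 0 h library. The other Pim3 region (chr15:88903185-88903655, in an intron of Ttll8), without AP-1, was at 66.8 and 65.6 at 0 h, then 74.2 and 61.9 at 2 h, and these values overlapped.

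Of 11 Wnt genes, 2 had a region (5.13% of 39), of 9 FGF and ERK feedback genes 3 (7.5% of 40) and of 8 Nodal pathway genes 3 (14.3% of 28). Tcf7l1, a repressor bound to WNT targets, had an intronic region 1.1 kb from a TSS (chr6:72787163-72787828) that went from 94.6 and 93.9 at 0 h to 5.32 in the calling 8 h library and was lost at 16 h. Axin2, a WNT target and inhibitor, had a region (chr11:108897573-108898381, intergenic) at 38.8 and 42.5 at 0 h, then 56.2 and 80.0 at 16 h, its highest values coming just before the loss. Etv4 and Etv5, transcription factors downstream of FGF, had 1 each, as had Spry4, an FGF feedback inhibitor. Lefty1, a Nodal inhibitor, had a region (chr1:180924601-180925506, intergenic) that stayed between 73.1 and 93.4 through 8 h and was at 35.2 and 52.7 at 16 h. Smad7 had 2 and the receptor gene Acvr2b had 1.

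In the list of 17 PrE genes, 3 had late-lost regions, 4 of the 38 distal regions called at 0 h near the list (10.5%). They were the basement membrane genes Lamc1, with 2, and Col4a1, with 1, and the endocytic receptor gene Lrp2, with 1. An intronic Lamc1 region (chr1:153316294-153316667) went from 95.3 and 91.5 at 0 h to 27.9 and 15.4 at 8 h, and the Col4a1 region (chr8:11227062-11227942, intronic) went from 83.9 and 82.6 to 15.7 and 33.5 at 16 h. The list of 6 genes of other tissues, a control, had 2 distal regions called at 0 h and neither was late-lost.

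Among regions with the clearest course, called in both libraries at every time before the loss and in none after, the 6 strongest at 0 h were assigned to no gene of the lists. Of those lost at 16 h, the first lay in an intron of Corin, a membrane protease gene (chr5:72464436-72465466), and went from 99.4 and 99.8 at 0 h to 98.7 and 98.9 at 2 h, 91.1 and 91.4 at 4 h, then 52.5 and 51.9 at 8 h. The second was intergenic, 440 kb from the nearest TSS (chr11:14159205-14160105), and went from 99.2 and 99.4 at 0 h to 5.92 and 2.77 at 8 h. The third lay 3.22 kb from the TSS of Ankle2 (chr5:110227275-110228292, intergenic) and went from 99 and 98.3 to 9.96 and 22.1 at 8 h. The 3 regions thus differed at 8 h, Corin keeping a middle rank in both libraries.

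Of those lost at 24 h, the first lay in an intron of the myosin gene Myo3b (chr2:70278417-70279289) and was still at 74.6 and 75.2 at 16 h, after 99.8 and 99.7 at 0 h. The second, 9.98 kb from the homeobox gene Nkx6-3 (chr8:23162890-23163615, intergenic), was at 99.8 and 99 at 0 h, then 58.4 and 46.9 at 16 h. The third, 85.0 kb from B3galt2 (chr1:143555245-143556084, intergenic), was at 99.3 and 99.4 at 0 h, then 22.0 and 31.9 at 16 h. The 2 highest with a SOX-POU composite, in an intron of Pard3 (chr8:127343086-127343638) and near Gsx2 (chr5:75084829-75085808, intergenic), were at 59.3 and 71.4 and at 61.3 and 54.5 at 16 h, their last time point with calls. The window near Gsx2 also held a POU octamer, a GATA and an AP-1 match. The Cdh13 intron region with 2 AP-1 matches (chr8:118393962-118394718) started at 97.5 and 98.1 and was at 95.3 and 98.3 at 2 h. The region near Cmtm4 with a GATA match (chr8:104410625-104411401, intergenic) was at 98.6 and 97.4 at 0 h, 99.5 and 98.6 at 2 h, then 56.6 and 59.4 at 8 h.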

How the data were processed

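ATAC-seq was performed in 14 libraries (7 time points, 2 replicates each) from 50000 cells per library. The authors made the files with the ENCODE ATAC-seq pipeline against GRCm38 (mm10) and deposited 1 peak list per library, whose file names give an IDR threshold of 0.05. The fourth column of the deposited lists is a score whose scale is not stated, and the submitters' processing notes name deepTools without a version. No reads or counts were analysed here, the reads per library that the study lists were not used, and the study's read-count test was not repeated. The number of libraries, 2 per time point, limits the precision.

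The 821472 autosomal peaks were merged (1-based coordinates), and 0 ended past a chromosome of GRCm38.p6. Scores were ranked within each library. TSSs came from GENCODE M21, and motifs were searched in 200 bp windows of the NCBI RefSeq GRCm38.p6 genome on both strands. The SOX-POU, TFCP2L1 and CTCF motifs are given by name only. The late-lost regions, the gene lists and the comparisons were chosen with earlier results of these data known. Regions were named as the 3 lost at 16 h and the 3 lost at 24 h with the highest mean 0 h percentile among those called in both libraries at each time before loss and none after, plus up to 3 per gene list. Genes were the 12 with the most regions and the list genes with a region. The exact permutation tests ran over libraries, with Benjamini-Hochberg adjustment over 21 tests at a threshold of 0.05, and were tested on simulated data. Analyses used Python 3.11.15, numpy 2.4.6, pandas 2.3.3, scipy 1.17.1 and pysam 0.24.0. The rank splits by motif and their comparison with other classes were added after the data were seen. They were read in libraries that had not set the loss class, but whose own calls of 0 to 8 h also limited the regions. Their p-values are thus not those of an independent check. The closing section gives the alternatives tried. The sequence and values of 1 region chosen by this rule are not reported here.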

Additional observations from a re-analysis of the deposited data

Results flagged for a closer look

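The rank of late-lost regions with an AP-1 match moved one way at 2 h and the other way at 8 h in both replicate series. The mean over series of the median percentile change from 0 h was 18.9 points at 2 h and -8.33 points at 8 h. Late-lost regions with a GATA match did the same, with 7.99 points at 2 h and -5.37 points at 8 h. The difference between the changes at these time points was not tested by itself. The values come from the 2376 regions called in all 8 libraries of 0 to 8 h, which the rule had used. Regions without the motif fell further by 8 h. Their median changes were -24.2 and -26.2 points without AP-1, and -23.4 and -25.2 points without GATA.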

How the results depend on the processing

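The number of late-lost regions stayed between 3433 and 4924 when single libraries were left out, and was 1868 when both libraries had to call a region at each time before the loss. The held-out difference between 0 to 8 h and 16 to 48 h passed its test in all 21 alternatives (59.3 to 65.2 points, and 52 to 70 points without single libraries). Among these was the set of 12 induced libraries without 0 h, which shared serum medium but still differed by doxycycline removal. The held-out score rank lost its call with the replicate block (r = -0.926, adjusted p = 0.0729) and without 4 of the 14 libraries (0 h replicate 2, 4 h replicate 1, 8 h replicate 2 or 24 h replicate 2), r then ranging with the rest from -0.943 to -0.821 and adjusted p from 0.0226 to 0.0944. For the held-out share with time, r ranged from -0.83 to 0.248 without single libraries and passed in no alternative.

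The F test over 0 to 8 h for regions with AP-1 (change of 25.9 points) and with GATA (17.8 points) had adjusted p of 0.0875 with the replicate block, whose smallest raw p is 0.0417. When whole regions were searched the changes were 23.6 and 10.8 points (exact test, adjusted p = 0.0667 and 0.1), and over all regions called in each library 26.4 and 17.4 points (adjusted p = 0.0667 and 0.0694). With the 50000 highest peaks they were 21 and 15.2 points (exact test, adjusted p = 0.0483). Without single libraries the changes were 25.8 to 30.6 and 13.4 to 21 points, with adjusted p of 0.0286 to 0.0944 and 0.0286 to 0.1, at or over 0.05 without 4 h replicate 1, either 8 h library or either 24 h library. The direction was the same in each of these settings. The ESRRB change turned to -0.525 points with 50% of the region covered and -0.73 points at the highest 0 h peak. Over regions called in all libraries, percentile differences between replicates correlated at over 0.1 for 0 of 21 pairs of time points (-0.115 to 0.0453). Percentiles within a library hide a shift in list length, so this does not show whether the replicate numbers pair the libraries. Replicate 2 had the longer list and the higher held-out share at 7 of 7 time points. With the replicate block the held-out difference of 61.3 points kept its call.

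The AP-1 share was 14% with peaks within 100 bp merged, 14.5% at the highest 0 h peak and 13.7% to 15.4% without single libraries. It was 33.3% over whole regions, which are mostly longer than the windows. The Epi share was 4.52% with the 50000 highest peaks, 3.47% beyond 5 kb and 3.44% with TSSs up to 100 kb. The PrE share was 3.15% with the 50000 highest peaks, 3.24% with 50% of the region covered, 2.85% with TSSs up to 100 kb and 2.68% to 2.97% without single libraries. The GATA difference from regions lost only by 48 h ranged from -2.18 to 4.12 points without single libraries, and turned to -2.18 and -1.43 points without 24 h replicate 1 and 24 h replicate 2. It and the AP-1 difference from that class gave no value without either 48 h library. The F test of the AP-1 gap to regions lost only by 48 h and to those called in all libraries passed in 1 and 5 alternatives. The causes were not tested. Peak lists hold no read counts, so a call lost near the calling limit and a closed region cannot be told apart.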
